A study of Mus musculus with 9 samples.

Results

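The 5 genes TRBV23, TRBV24, TRBV26, TRBV29 and TRBV30 form the downstream group of variable (V) segments of the mouse T-cell receptor beta locus, and their chains were taken from T-cell receptor libraries of mouse lymph nodes. A chain belonged to a gene when the first V call of a productive TRB contig named it, and each combination of TRBV gene, TRBJ gene and junction nucleotides was counted once per library. Of the 5 genes 4 had productive contigs, beside 17 other TRBV genes and 21 in all. They gave 1729 distinct chains in the 6 main libraries and 2586 in the 8 libraries used. The second V call of the tables gave the same gene for 2690 of 2690 contigs.

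Lymph node cells came from female mice of 10 to 11 months, either wild type (WT) or 5xFAD, a transgenic model of familial Alzheimer's disease. Each genotype gave 1 library from deep cervical nodes (dCLN), 1 from superficial cervical nodes (sCLN) and 1 from inguinal nodes (iLN), and these are the 6 main libraries. A dCLN library with CD4 in its title, labelled WT, and a library of mixed nodes and genotypes were set beside them. The strain background, the sorting of the CD4-titled cells and the number of animals per library are not given in the sources used here. Cell suspensions were pooled before capture, so no p-value measures the spread between animals. P-values measure the spread between libraries, except in the pairing test, where those of the called TRBV26 combinations measure counting error of chains.

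A beta chain is assembled in the thymus by joining 1 V, 1 diversity (D) and 1 joining (J) segment, with bases trimmed and added at the joints. The joint is the junction, which runs from the conserved cysteine codon of V to the conserved phenylalanine codon of J and carries much of the contact with peptide. In the older nomenclature TRBV23 is Vβ20, TRBV24 is Vβ17, TRBV26 is Vβ3, TRBV29 is Vβ7 and TRBV30 is Vβ18. Vβ3 and Vβ7 are among the segments known for loss of T cells to superantigens of endogenous retroviruses in some mouse strains.

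On GRCm38 the 5 genes lie on the plus strand of chromosome 6, between the larger upstream V array and the D and J segments. TRBV23 spans 41216073 to 41216526, TRBV24 41218091 to 41218557, TRBV26 41227505 to 41227993, TRBV29 41271394 to 41271881 and TRBV30 41281376 to 41281990, each with its leader and intron. The first D segment, TRBD1, starts at 41533201. The GENCODE annotation lists TRBV24 as a pseudogene and the other 4 as V genes. What the segments give to a junction is shown by their germline ends from the cysteine codon (in capitals) to the last base, as found at the end of the GRCm38 transcripts.
TRBV23: TGCtccagcagtcaatc
TRBV26: TGTgccagcagtctgtc
TRBV29: TGTgctagcagtttatc
TRBV30: TGTagttctagaga
TRBV30 ends 14 bases from the start of this codon and the other 3 end at 17.

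The defect of TRBV24 can be read beside TRBV26 in the last 45 bases of both GRCm38 segments. The codon 6 bases before the second conserved cysteine codon is in capitals.
TRBV24: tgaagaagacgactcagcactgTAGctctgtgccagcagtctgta
TRBV26: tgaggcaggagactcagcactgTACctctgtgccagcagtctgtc
TRBV24 has the stop codon TAG where TRBV26 has TAC, a tyrosine codon. The 2 segments were identical at 212 of 280 bases (75.7%). No productive TRBV24 contig was listed in any of the 8 libraries. A contig with this stop codon cannot be productive, so the 0 does not measure how often TRBV24 was rearranged. The main libraries listed 0 nonproductive contigs of any gene. The CD4-titled library listed 37 and the mixed library 32, with 0 from the members. A TRBV24 form without the stop could take at most 0.0449% of chains in the CD4-titled library, the deepest, and 0.16% in sCLN WT, the shallowest. Intervals and such limits cover counting error only.

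The main libraries held 1875 to 4661 distinct TRB chains, the CD4-titled library 6686 and the mixed library 3992, with a median of 7 to 10 UMIs per TRB contig. Any pair of these 8 libraries shared at most 40 cell barcodes and 0 combinations of barcode and junction. A second CD4-titled library, labelled 5xFAD, shared 6821 such combinations with the first and was left out. The first held 6963 TRB contigs and the second 6992, and they shared 6526 of 6628 and 6652 TRB barcodes. Nearly the same cells thus carry both a WT and a 5xFAD label, so the genotype of the CD4-titled library is uncertain. Between 1.66% and 5.83% of barcodes held 2 or more TRB chains, which were kept. The cluster as a whole took 10.1% of chains of WT dCLN, 9.23% of WT sCLN and 8.96% of WT iLN. Its share was 11.2% for 5xFAD dCLN, 9.62% for 5xFAD sCLN and 11.96% for 5xFAD iLN. It took 7.31% in the CD4-titled and 9.22% in the mixed library.

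TRBV26 and TRBV30 were the members whose genotype groups did not overlap, with 5xFAD above WT. Over all 21 TRBV genes this held for 3 (14.3%), the third being TRBV1, and 0 genes had 5xFAD below WT without overlap. In WT, TRBV26 took 4.05% of dCLN chains, 3.25% of sCLN chains and 3.14% of iLN chains. In 5xFAD it took 5.15% of dCLN, 4.25% of sCLN and 4.75% of iLN chains. The 3 5xFAD libraries were all above the 3 WT libraries, with means of 4.72% ± 0.452 (SD, n = 3) and 3.48% ± 0.499 (SD, n = 3). The fitted log2 fold change was 0.44 with a standard error of 0.16, and edgeR's quasi-likelihood test with Benjamini-Hochberg adjustment over 21 TRBV genes gave an adjusted p of 0.455. The comparison therefore did not pass the threshold of 0.05. Over barcodes that also held an alpha (TRA) chain the log2 fold change was 0.18 (edgeR adjusted p = 0.722). Within single nodes, the counting interval of the TRBV26 log2 ratio excluded 0 in iLN, at 0.60 (95% interval 0.18 to 1.01). It included 0 in dCLN (0.34, -0.027 to 0.70) and sCLN (0.38, -0.052 to 0.81). Intervals off 0 in iLN were common outside the cluster. They lay above 0 for TRBV13-1 (0.41) and TRBV31 (0.59). They lay below 0 for TRBV2 (-2.84), TRBV12-2 (-0.69), TRBV13-2 (-0.59), TRBV16 (-0.47) and TRBV19 (-1.15).

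TRBV29 had the highest mean share of the members over the 6 main libraries, 5.01% ± 0.699 (SD, n = 6), although TRBV26 was above it in dCLN 5xFAD, sCLN 5xFAD and the CD4-titled library. It had no common direction between genotypes. In WT its share was 4.93% for dCLN, 5.28% for sCLN and 5.13% for iLN, a narrow range. In 5xFAD it was 4.55% in dCLN, 4.04% in sCLN and 6.10% in iLN, so that the 5xFAD libraries lay on both sides of the WT ones. The means were 5.11% ± 0.178 in WT and 4.90% ± 1.07 in 5xFAD (SD, n = 3 each), with a fitted log2 fold change of -0.08 (SE 0.18, edgeR adjusted p = 0.904).

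TRBV23 and TRBV30 were rare. In WT, TRBV23 took 0.924% of dCLN chains, 0.427% of sCLN chains and 0.448% of iLN chains. In 5xFAD the same shares were 1.20%, 0.826% and 0.778%. In both genotypes its share was highest in dCLN. The value was higher in 5xFAD in 3 of 3 node types, but the dCLN WT library lay above 2 of the 5xFAD libraries. The genotype log2 fold change was 0.68 (SE 0.22, edgeR adjusted p = 0.455), that of dCLN against sCLN 0.77 (SE 0.26, adjusted p = 0.771) and that of dCLN against iLN 0.81 (SE 0.27, adjusted p = 0.677). TRBV30 rested on 4 to 17 chains per main library, or 0.205% to 0.267% of chains in WT and 0.279% to 0.501% in 5xFAD, and its genotype log2 fold change was 0.60 (SE 0.35, edgeR adjusted p = 0.644).

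None of the 4 detected members passed the genotype test, and the background was 0% of the 21 TRBV genes (0 called by edgeR, 2 at an unadjusted p under 0.05, which were TRBV23 and TRBV26, and 0 called by DESeq2). Of the 17 other TRBV genes 5 had a positive and 12 a negative genotype fold change, and the median over all 21 was -0.10 on the log2 scale. The 3 node contrasts likewise called 0% (0 of 21 each by edgeR and by DESeq2). At an unadjusted p under 0.05 there was 1 gene in each of the contrasts with dCLN, which was TRBV23, and 0 between sCLN and iLN. The two-sided exact permutation test that flips the sign of each node type's difference gave 0.25 for TRBV23, TRBV26 and TRBV30, the smallest value that 3 pairs allow, and 0.75 for TRBV29.

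**Figure D1:**
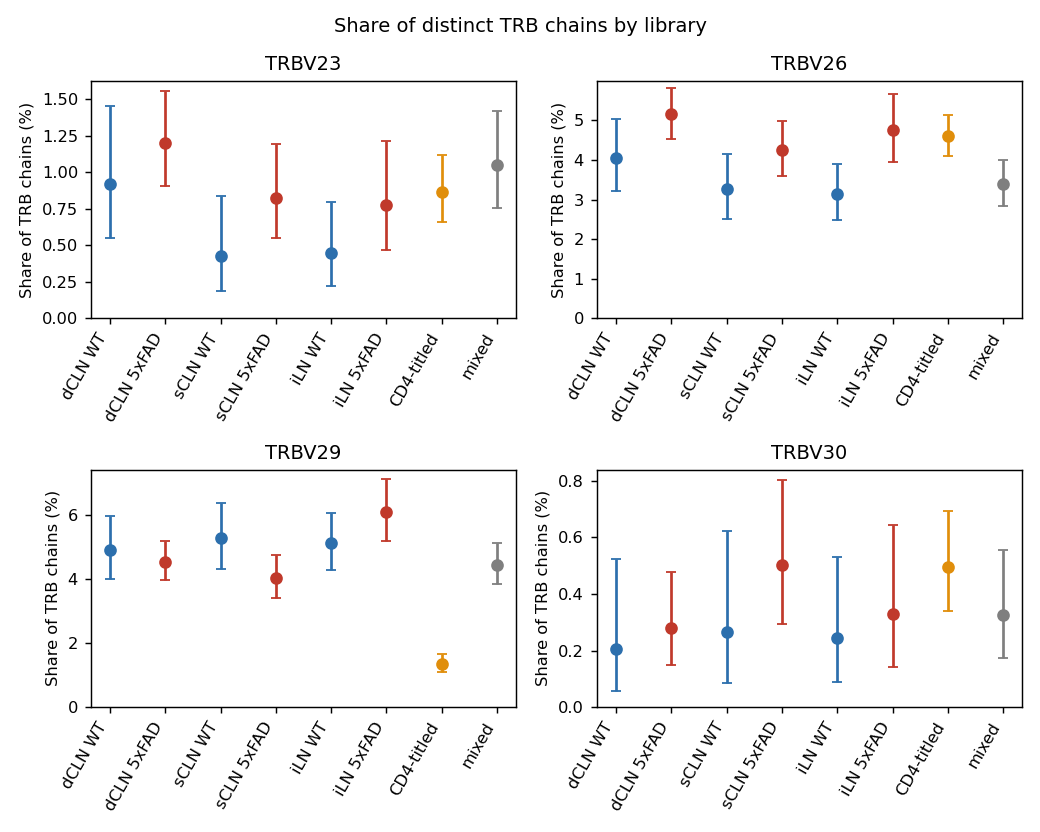
Share of distinct TRB chains (vertical axis, percent) taken by TRBV23, TRBV26, TRBV29 and TRBV30 in each of 8 libraries (horizontal axis), with exact 95% counting intervals as bars. WT libraries are blue, 5xFAD red, the CD4-titled library orange and the mixed one grey. The 3 red TRBV26 points, from 4.25% to 5.15%, lie above the 3 blue ones, and the orange TRBV29 point lies at 1.36%.

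The TRBV29 share of the CD4-titled library lay below that of every other library used. TRBV29 took 1.36% of its chains (exact Clopper-Pearson 95% interval 1.10 to 1.67), against 4.93% in dCLN WT, 4.55% in dCLN 5xFAD and 4.46% in the mixed library. The log2 ratio of its share was -1.86 (95% counting interval -2.27 to -1.44) to dCLN WT, -1.74 (-2.09 to -1.38) to dCLN 5xFAD and -1.71 (-2.07 to -1.34) to the mixed library. TRBV26 took 4.59% of chains there, with a log2 ratio of 0.17 (-0.18 to 0.53) to dCLN WT and 0.44 (0.15 to 0.73) to the mixed library. TRBV genes outside the cluster also had intervals that excluded 0 against dCLN WT, in both directions. Examples are TRBV12-1 at -1.25 (-1.78 to -0.72), TRBV19 at 1.53 (1.11 to 1.95) and TRBV2 at 2.10 (1.58 to 2.62). To the mixed library, TRBV12-1 lay below TRBV29, at -1.85 (-2.26 to -1.44). A low or high share in this library was therefore not particular to TRBV29. The cell type marker CD4 itself could not be checked in tables of receptor contigs. With 1 such library there is no replicate check, and whether the title, the library or the animals set this value cannot be told apart.

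Across the 6 main libraries, the gene whose centred log2 shares lay closest to those of TRBV26 was TRBV1, with a root-mean-square difference of 0.18, against a median of 0.35 over 19 genes. For TRBV29 it was TRBV13-1, at 0.090 against a median of 0.29, and for TRBV23 it was TRBV26, at 0.30 against 0.61. These shares come from the same libraries and sum to a whole, so the values are descriptive.

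TRBV26 occurred in a pair of forms that differ at 2 bases. The first form, which is in the GRCm38 transcript, and the second, which is not, are shown from position 100 to 174, counted from 1 in the IMGT-gapped V alignment, with the differing bases in capitals.
TRBV26 first form: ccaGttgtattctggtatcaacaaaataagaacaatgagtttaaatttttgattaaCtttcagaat
TRBV26 second form: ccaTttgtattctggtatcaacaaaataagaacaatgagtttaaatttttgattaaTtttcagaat
The substitutions are G112T and C165T, read from the first form to the second. G112T turns codon 38 from GTT, a valine codon, into TTT, a phenylalanine codon, and C165T turns codon 55 from AAC into AAT, both asparagine codons. Both bases changed together in 161 of 717 chains of the 6 main libraries, and no chain carried only 1 of them.

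The second form was present in each main library, and the counting intervals of the 6 overlapped. In WT this was 19.0% for dCLN (15 of 79), 22.95% for sCLN (14 of 61) and 19.5% for iLN (15 of 77). In 5xFAD this was 23.75% for dCLN (57 of 240), 20.8% for sCLN (30 of 144) and 25.9% for iLN (30 of 116). The genotype groups overlapped, with means of 20.5% ± 2.16 in WT and 23.5% ± 2.53 in 5xFAD (SD, n = 3 each), and the same exact permutation test gave p = 0.5. In the CD4-titled library 0 of 307 TRBV26 chains had the second form, which allows up to 0.977%, and in the mixed library 0 of 135, which allows up to 2.22%. Both limits lie below every main library, although the mixed library is labelled with the same nodes and genotypes.

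**Figure D2:**
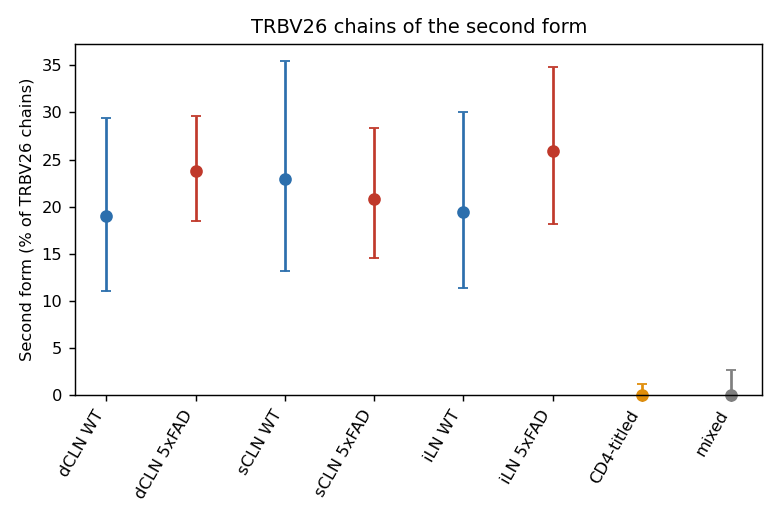
Share of TRBV26 chains with the second form (vertical axis, percent) in each of 8 libraries, with exact 95% counting intervals, WT in blue, 5xFAD in red, CD4-titled in orange and mixed in grey. The 6 main libraries lie between 19.0% and 25.9%, and the CD4-titled and mixed libraries at 0.

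The deposited allele calls undercounted the second form. Of its 161 chains 128 were called TRBV26*02 and 33 were called TRBV26*01 with a V identity below 1, and 0 chains of the first form were called TRBV26*02. Chains of the second form also differed in the J allele. All 5 that used TRBJ1-5, from 3 libraries, were called TRBJ1-5*03, and all 12 chains of the first form with TRBJ1-5 were called TRBJ1-5*01. TRBV29 had a single V form, but 8 of its 30 TRBJ1-5 chains (26.7%, exact 95% interval 12.3 to 45.9), with 1 or more in each of the 6 libraries, were called TRBJ1-5*03. Over TRBV genes outside the cluster this was 45 of 397 (11.3%, 8.39 to 14.9). The J calls above come from the 6 main libraries. In the CD4-titled and mixed libraries TRBJ1-5*03 was called for 0 of 8 TRBV29 chains with TRBJ1-5. It was also called for 0 of 9 first-form TRBV26 chains and 0 of 294 chains outside the cluster. The absence there was thus not limited to TRBV26. Whether the same germline allele set was used for the calls of all libraries is not given. The TRBV26 forms were read from the bases of the contigs and not from these calls.

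TRBV23 carried a rarer substitution, T307C, which changes codon 103 from TTG to CTG, both leucine codons. It is in capitals in this stretch, from position 286 to 324.
TRBV23 first form: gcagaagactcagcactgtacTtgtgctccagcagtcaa
TRBV23 second form: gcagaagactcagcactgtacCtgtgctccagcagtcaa
The second form was found in 11 of 140 chains of the main libraries. In 5xFAD these were 6 of 56 dCLN, 0 of 28 sCLN and 3 of 19 iLN chains. In WT they were 0 of 18 dCLN, 1 of 8 sCLN and 1 of 11 iLN chains. It was found in 0 of 58 chains of the CD4-titled library and 0 of 42 of the mixed one, limits of 5.17% and 7.14%.

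V identity, the deposited fraction of V bases that match the called allele, was 1 for most chains and at least 0.993 in every member chain. In the main libraries it was below 1 in 10.7% of TRBV23, 6.42% of TRBV26, 3.54% of TRBV29 and 13.2% of TRBV30 chains, against 4.30% of other TRBV chains. The mismatch lay inside the junction alone, where trimmed bases can be replaced, in 28 of 29 such TRBV29 chains and 7 of 7 of TRBV30. It lay before the junction in 33 of 46 such TRBV26 chains and 11 of 15 of TRBV23, and these are the second-form chains above. The single TRBV29 substitution outside the junction was C213T in 1 chain.

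The use of J segments by each V gene was compared with what the library would give if V and J were joined independently. Expected numbers were formed in each library from its V and J totals, and 193 V-J combinations with at least 20 expected chains were tested. Of these 18 were called (9.33%), 10 above expectation (5.18%) and 8 below (4.15%). Of 24 member combinations 3 were called, 2 above and 1 below, and all 3 were TRBV26. The members' share of calls, 12.5%, was near that of TRBV genes outside the cluster (15 of 169, 8.88%), and TRBV1, TRBV3 and TRBV31 had 3 called combinations each as well. The median log2 ratio was -0.03 over the members' combinations and -0.02 over all. A combination above expectation lowers others of the same V gene, so the 3 are not independent. The reported p-value of a combination is the larger of a quasi-likelihood p-value and a p-value from counting error alone. For these 3 it is the counting one, which treats chains and not libraries as the units. The germline J segments of these 3 combinations are shown with the phenylalanine codon that ends the junction in capitals.
TRBJ1-2: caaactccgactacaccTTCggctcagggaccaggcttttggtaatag
TRBJ1-3: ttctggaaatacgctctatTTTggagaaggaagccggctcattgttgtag
TRBJ2-5: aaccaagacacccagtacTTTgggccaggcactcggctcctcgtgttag
On GRCm38 chromosome 6 TRBJ1-2 lies at 41534001 to 41534048 and TRBJ1-3 at 41534323 to 41534376, both in the first J cluster, and TRBJ2-5 at 41543453 to 41543501 in the second. The annotated TRBJ1-3 interval is longer than the 50 bases shown.

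TRBV26 with TRBJ1-2 was seen in 76 chains against 38.3 expected, a log2 ratio of 0.95 (SE 0.18, edgeR adjusted p = 1.53e-05). Among TRBV26 chains of WT nodes, TRBJ1-2 made up 11.4% for dCLN, 9.84% for sCLN and 12.99% for iLN. In 5xFAD it made up 11.3%, 6.94% and 12.1%, in the same order of nodes. Over all other TRBV chains it made up 4.08% to 6.65%, and TRBV26 was above them in 6 of 6 libraries. The CD4-titled library, at 9.12% against 6.02%, and the mixed library, at 10.4% against 6.53%, had the same direction.

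TRBJ1-3 was seen with TRBV26 in 59 chains against 35.3 expected, above expectation in 6 of 6 libraries (log2 ratio 0.70, SE 0.19, edgeR adjusted p = 0.00672). TRBJ2-5, a frequent J segment, was seen in 66 against 101 expected, above expectation in 1 of 6 libraries (log2 ratio -0.63, SE 0.17, edgeR adjusted p = 0.00542). Without dCLN 5xFAD the log2 ratio of TRBJ1-3 was 0.61 (edgeR adjusted p = 0.107), and without iLN 5xFAD that of TRBJ2-5 was -0.49 (adjusted p = 0.073), so the direction held and the call was lost. TRBJ1-2 stayed past the threshold without each of the 6.

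Summed over the main libraries, both forms of TRBV26 were joined to TRBJ1-2 above expectation. TRBJ1-2 was used by 27 of 161 chains of the second form (16.8%) and by 49 of 556 of the first (8.81%). The second form was the higher in 6 of 6 libraries, from 13.3% against 12.9% in iLN WT to 26.7% against 7.81% in dCLN WT. This comparison was noticed in the data and is given without a test. With the first form alone, a fit added after seeing the data, TRBJ1-2 remained above expectation (log2 ratio 0.70, SE 0.21, edgeR adjusted p = 0.0182), in 5 of 6 libraries. With the second form alone and at least 5 expected chains the log2 ratio was 1.49 (SE 0.29, adjusted p = 4.18e-05), from 27 chains against 8.37 expected. Both fits reuse the chains of the main call and are no separate support for it. The TRBJ2 cluster took 56.3% and 56.5% of the first and the second form.

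**Figure D3:**
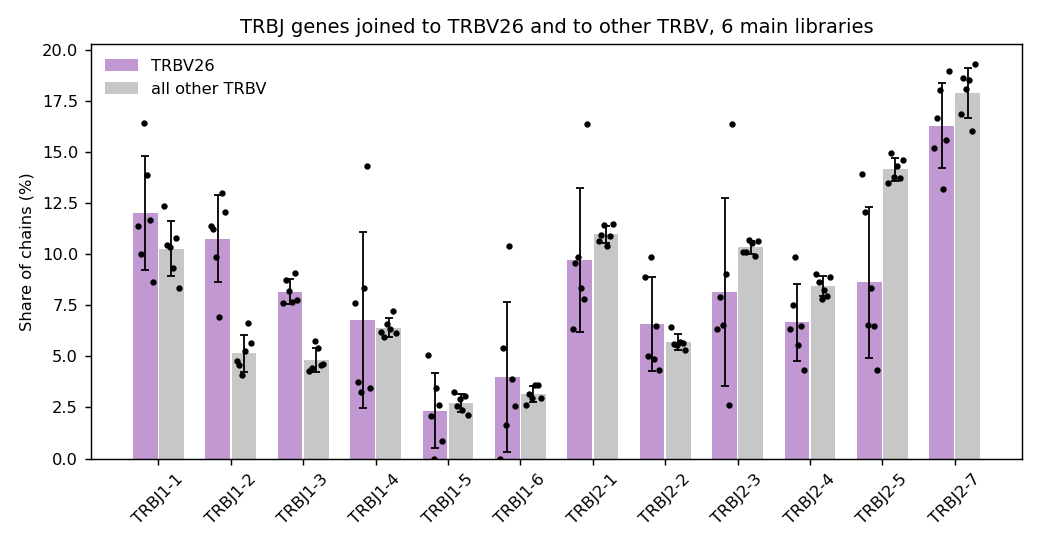
Share of chains joined to each of 12 TRBJ genes (vertical axis, percent) for TRBV26 (purple) and for all other TRBV chains (grey) in the 6 main libraries, with bars for means, error lines for SD and points for libraries. TRBJ1-2 averages 10.7% ± 2.13 for TRBV26 and 5.16% ± 0.91 for the others, and TRBJ2-5 is lower for TRBV26.

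TRBV29 had 0 of its 12 tested combinations called. Its highest ratio was with TRBJ1-5 (30 chains against 21.6, log2 ratio 0.41, SE 0.24, edgeR adjusted p = 0.269) and its lowest with TRBJ1-6 (17 against 26.5, -0.66, SE 0.35, adjusted p = 0.210). TRBV23 had enough chains for TRBJ2-7 alone, at 32 against 25.4 (log2 ratio 0.28, SE 0.23, adjusted p = 0.428). TRBV30 had too few for any test, and 18 of its 53 chains used TRBJ2-7.

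The TRBJ2 cluster as a whole took 56.0% ± 7.23 of TRBV26 chains (SD, n = 6) and 67.5% ± 2.08 of all other chains, and TRBV26 was the lower in 6 of 6 libraries. The exact sign-flip permutation test over 6 libraries, two-sided, gave 0.03125, the smallest value that 6 libraries allow, and 0.117 after adjustment over 15 comparisons. For TRBV29 the share was 65.7% ± 5.60 and for TRBV23 71.7% ± 10.5 (SD, n = 6), with adjusted exact p-values of 0.724 and 0.469.

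Mean junction lengths of TRBV29 and TRBV26 lay below those of other chains in each main library, without passing the adjusted test. TRBV29 junctions averaged 40.7 ± 0.251 nucleotides (SD, n = 6), 1.16 below the other chains of the same library, and were shorter in 6 of 6 libraries. TRBV26 junctions averaged 41.1 ± 0.329 nucleotides, 0.67 below the others, also in 6 of 6, with the gap close to 0 in iLN 5xFAD (41.56 against 41.59). TRBV29 junctions held more added bases, 4.23 ± 0.170 against 4.00 ± 0.0913 in the others, in 6 of 6 libraries. Each of these 3 comparisons had an exact permutation p of 0.03125, the smallest that 6 libraries allow, and an adjusted p of 0.117. None of the 15 passed the threshold, and the few at this smallest value could not have passed after adjustment. With the CD4-titled and mixed libraries added, TRBV26's TRBJ2 share and both junction lengths passed it (adjusted exact p = 0.0391 each). In each, 8 of 8 libraries had the same direction, which gives the smallest p that 8 libraries allow. The change from not passing to passing thus follows from the number of libraries. The added bases of TRBV29 did not pass there. They were above the others in the CD4-titled library (4.56 against 3.90) and below them in the mixed library (3.94 against 4.02). TRBV23 junctions averaged 41.8 ± 0.862 nucleotides against 41.8 ± 0.108. TRBV30, whose germline end is the shorter one shown above, averaged 37.5 to 41 nucleotides in the main libraries, from 4 to 17 chains each, below the others in 6 of 6.

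**Figure D4:**
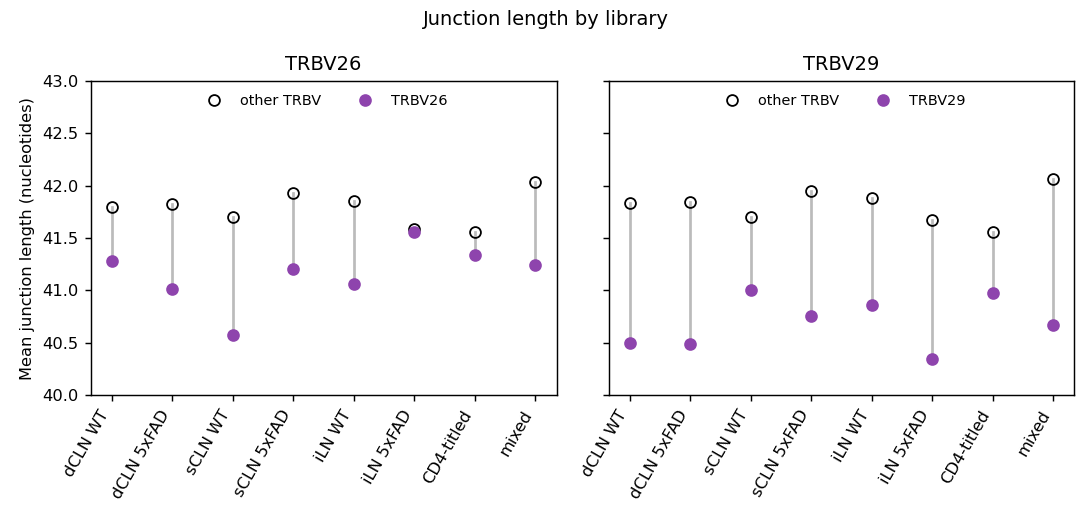
Mean junction length (vertical axis, nucleotides, from 40) of TRBV26 and TRBV29 chains (filled purple) and of all other TRBV chains of the same library (open circles) in 8 libraries. Filled points lie below open ones in each library, by 0.67 for TRBV26 and 1.16 for TRBV29 on average over the 6 main libraries.

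A chain seen in 2 or more barcodes of a library marks cells that may descend from 1 T cell. In the main libraries 32 TRBV26, 33 TRBV29, 3 TRBV23 and 2 TRBV30 chains were repeated. Where at least 2 of the barcodes also held a TRA chain, all shared a TRA junction in 10 of 10 TRBV26, 9 of 10 TRBV29 and 1 of 1 TRBV23 chains, against 193 of 216 chains of other TRBV genes.

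In WT 11.4% of dCLN (9 of 79), 13.1% of sCLN (8 of 61) and 3.90% of iLN TRBV26 chains (3 of 77) were repeated. In 5xFAD this was 1.25% of dCLN (3 of 240), 4.86% of sCLN (7 of 144) and 1.72% of iLN chains (2 of 116). The share was lower in 5xFAD in 3 of 3 node types, with means of 9.47% ± 4.90 and 2.61% ± 1.96 (SD, n = 3 each), and the exact permutation p was 0.25, the smallest possible. TRBV29 had the same direction in 3 of 3, at 5.09% ± 1.14 in WT and 3.39% ± 1.23 in 5xFAD, with an exact p of 0.25. Chains of TRBV genes outside the cluster also had lower shares in 5xFAD, which in dCLN were 2.10% beside 8.73% in WT, in sCLN 3.66% beside 4.29% and in iLN 1.86% beside 3.80%. The part of library size in this was not tested; barcodes with a TRB chain numbered 2076 in dCLN WT and 4559 in dCLN 5xFAD, 1931 and 3375 in sCLN, and 2493 and 2443 in iLN.

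**Figure D5:**
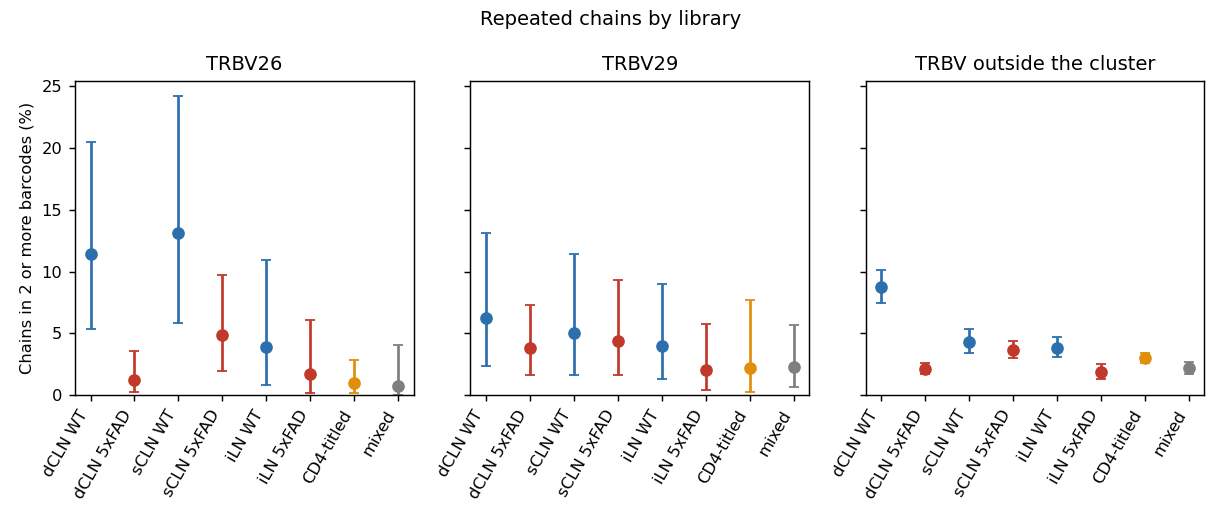
Share of chains seen in 2 or more barcodes of a library (vertical axis, percent) for TRBV26, TRBV29 and the TRBV genes outside the cluster in 8 libraries, with exact 95% counting intervals, WT in blue, 5xFAD in red, CD4-titled in orange and mixed in grey. TRBV26 lies at 11.4% and 13.1% in the dCLN and sCLN WT libraries and at 1.25% and 4.86% in their 5xFAD counterparts.

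The chain in most barcodes of a single library is shown for each gene by its junction, with bases that the tables give to neither V, D nor J in capitals, and with 3 more chains that were found in several libraries or stand out by form or size. For TRBV26, 5 chains tied at 3 barcodes in a library, and the one in most libraries is listed first.
TRBV23 with TRBJ1-4: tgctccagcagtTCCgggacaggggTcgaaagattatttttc
TRBV23 with TRBJ2-3: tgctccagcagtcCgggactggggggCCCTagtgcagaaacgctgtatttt
TRBV26 with TRBJ1-1: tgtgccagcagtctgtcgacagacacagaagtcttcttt
TRBV26 with TRBJ2-7: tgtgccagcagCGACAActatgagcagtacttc
TRBV29 with TRBJ2-1: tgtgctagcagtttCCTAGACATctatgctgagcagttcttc
TRBV29 with TRBJ1-4: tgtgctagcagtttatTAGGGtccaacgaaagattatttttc
TRBV30 with TRBJ2-3: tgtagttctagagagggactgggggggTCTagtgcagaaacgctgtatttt
The TRBV23 chain with TRBJ1-4 was in 5 barcodes of the CD4-titled library, all 5 with the same TRA junction, and the one with TRBJ2-3 in 4 barcodes of dCLN WT. The TRBV26 chain with TRBJ1-1 has no added base. It was in 3 barcodes of dCLN WT, all with a common TRA junction, and in sCLN WT and iLN WT as well. With 5 barcodes in all, it occurred in each WT node and in 0 of the 5xFAD libraries. Libraries of 1 genotype may share animals, and the common TRA junction is given here for dCLN WT only. A clone of 1 animal, a pattern of genotype and other origins of the shared chain thus cannot be told apart. The TRBV26 chain with TRBJ2-7 is of the second form and was in 3 barcodes of sCLN WT and 1 of dCLN WT.

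The TRBV29 chain with TRBJ2-1 was in 4 barcodes of the mixed library. The TRBV29 chain with TRBJ1-4 was in 3 barcodes each of sCLN WT and iLN WT, 6 in all, and the barcodes with a TRA chain shared it within each library (3 of 3 and 2 of 2). The TRBV30 chain was in 2 barcodes of sCLN 5xFAD. In the CD4-titled library 7 of 58 TRBV23 chains were repeated (12.1%, exact 95% interval 4.99 to 23.3). For TRBV genes outside the cluster this was 2.99% of chains (2.58 to 3.44). Of these 7 TRBV23 chains 6 had a TRA chain in at least 2 barcodes, and in 4 of the 6 all shared a TRA junction. For TRBV genes outside the cluster this held for 136 of 182 chains of the CD4-titled and mixed libraries. Not every repeated chain there need be 1 clone.

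Of 711 distinct TRBV26 chains over the main libraries 5 (0.703%) were in 2 or more libraries, 2 in WT nodes only, 3 in 5xFAD nodes only and 0 in both genotypes. Of 814 TRBV29 chains 5 were shared (0.614%), 2 in WT only, 1 in 5xFAD only and 2 in both. No TRBV23 or TRBV30 chain was shared (0 of 140 and 0 of 53). Whether the nodes of 1 genotype came from the same animals is not given. Of 14946 chains of TRBV genes outside the cluster 90 were shared (0.602%), 38 of them across genotypes.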

How the data were processed

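The series holds 9 tables of T-cell receptor contigs, 1 per library, of which 8 were used. Cells were tagged with 4 hashtag antibodies before pooling, per the labels' protocols. The submitters' processing notes name Cell Ranger 6.0.1 and Seurat 4.1.0 without a role, and IgBLAST calls and AIRR columns are recorded per the file headers. The germline allele set is not given in the sources used here. The deposited UMI and read counts per contig are whole numbers without normalization. V identity was deposited as a fraction of matching V bases. Lengths of the junction and of added bases were deposited in nucleotides.

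Productive TRB contigs with a junction were reduced to distinct TRBV-TRBJ-junction chains per library. No doublet caller was run. The members and lists were chosen with earlier results of these data known. All 5 members were named in every library, with J combinations past the threshold and each member's highest and lowest, the 2 most similar TRBV genes (1 printed), the largest clone and the chain in most libraries. The TRBV23 clone of dCLN WT and the second-form TRBV26 clone were chosen after their values were seen. For TRBV use, edgeR 4.0.16 (R 4.3.3) fitted a quasi-likelihood model with terms for genotype and node, library chain totals as offset and at least 10 chains per gene, and for pairing the same kind of model against expected numbers. A pairing p-value could not fall below that of counting error alone. Single measures were compared with exact sign-flip permutation tests. P-values were adjusted by Benjamini-Hochberg at 0.05. A pseudocount of 0.5 chains entered each log2 ratio of shares. Intervals of shares are exact Clopper-Pearson at 95%, and a count of 0 was given a limit of 3 counts. The fits were tested on simulated data. Those for pairing held counting error and no further spread between libraries, so they cannot show how that test behaves where libraries vary. Alternatives changed the counted unit, UMI minimum, gene call, scaling, tool (DESeq2 1.42.0), filter, design and libraries. Sequences and positions came from the tables and from the GENCODE annotation of GRCm38, and no protein sequence was used.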

Additional observations from a re-analysis of the deposited data

Results flagged for a closer look

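The genotype ratio of TRBV29 pointed in opposite directions in a pair of node types. The log2 ratio of 5xFAD to WT was -0.39 in sCLN (95% counting interval -0.76 to -0.016) and 0.25 in iLN (-0.093 to 0.59). The difference between the nodes was not tested, since each has 1 library per genotype. TRBV13-1, the gene most like TRBV29 over the 6 libraries, had -0.58 in sCLN and 0.41 in iLN. It was picked for likeness in these same libraries, so its shared direction is not a separate result.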

How the results depend on the processing

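No analysis paired by replicate number was possible because each group has 1 library. Node type was the block of the genotype fit, and without that term 0 TRBV genes were called too. The second V call and the split of TRBV26 by form were chosen after seeing the data. For genotype, 0 TRBV genes were called under each of 11 other settings, and 0 to 1 when a library was left out (TRBV2, without sCLN WT or without sCLN 5xFAD). Node contrasts called 0 in 15 other fits and 0 to 2 for dCLN against iLN with a library left out (TRBV13-2 and TRBV31 without iLN 5xFAD). Combinations past the pairing threshold numbered 9 with a minimum of 50 expected chains, 43 with the CD4-titled and mixed libraries added, and 5 to 16 with a library left out. Members' combinations numbered 1, 3 and 2 to 3, and TRBJ1-2 and TRBJ1-3 with TRBV26 could not be tested at the higher minimum. With second-form chains alone, TRBJ1-3 (0.58) and TRBJ2-5 (-0.56) no longer passed. Within members, 3 comparisons passed with the CD4-titled and mixed libraries added. With 5 libraries the permutation test cannot pass, so only values are compared there.

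The genotype log2 fold change of TRBV26 was 0.18 over barcodes with a TRA chain. Differences near 0 changed sign. On the log2 scale TRBV29 ranged over libraries left out from -0.25 to 0.068 for genotype, -0.20 to 0.25 for dCLN against sCLN and -0.48 to 0.013 for dCLN against iLN. For sCLN against iLN TRBV23 ranged from -0.21 to 0.19, with -0.015 under TMM factors, and TRBV26 from -0.17 to 0.064, with 0.011 over barcodes. Against other TRBV, TRBV23 ranged from -0.098 to 0.33 nucleotides in junction length and -0.078 to 0.18 in added bases (-0.0046 with the CD4-titled and mixed libraries). TRBV29 ranged from -0.22 to 0.65 percentage points in repeated chains and -0.42 to 0.98 in chains with a TRA (-0.25 with those libraries), and TRBV26 from -3.70 to 0.11 in the latter. Depth limits TRBV23 and TRBV30 most, at 8 to 56 and 4 to 17 chains per main library.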
